A study of Mus musculus with 12 samples.

Results

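miR-140 and miR-455 are 2 mouse miRNAs best known from cartilage, and their 4 mature arms, mmu-miR-140-5p, mmu-miR-140-3p, mmu-miR-455-5p and mmu-miR-455-3p (written without the mouse prefix from here on), were the rows followed here out of 1042 miRNAs in the series. The members were taken as every row that is an arm of either hairpin. All 4 were among the 732 miRNAs that passed a minimum of 10 reads in at least 2 libraries. A miRNA hairpin is cut into a short duplex whose strands come from the 5′ side (5p) and the 3′ side (3p) of the stem. Usually 1 strand is loaded into an Argonaute protein and guides it to mRNAs through its seed, bases 2 to 8, while the other strand is degraded, so the balance of the arms is a property of a hairpin in a given cell. miR-140 is abundant in chondrocytes, where it acts on skeletal development and on matrix-degrading enzymes, and its gene lies in the ubiquitin ligase gene Wwp2. miR-455 is made from a gene inside Col27a1, a fibrillar collagen of cartilage, and both are linked to Sox9, the transcription factor that directs chondrocyte formation. No cartilage or chondrocytes were among the samples.

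Small RNA was sequenced from 12 libraries of 5 cell types. Mouse embryonic fibroblasts (MEFs, C57B6/129SvJae F1, 3 libraries, replicates 13, 14 and 15) were the parent cells of every reprogrammed type. The embryonic stem cells (ESCs, 3 libraries, replicates 2, 3 and 4) were the E14 line on a 129/ola background, so that ESCs and all other cells also differ in strain. Induced pluripotent stem cells (iPSCs, 2 libraries, replicates 62 and 63) were MEFs that received Oct4, Sox2, Klf4 and c-Myc from a dox-inducible lentivirus. NT-ESCs (2 libraries, replicates 71 and 72) were established by nuclear transfer from MEFs, and NT-iPSCs (2 libraries, replicates 51 and 52) by placing an iPSC nucleus in an enucleated egg. Each type was represented by 1 line whose replicates were separate RNA batches, so p-values measure the spread between batches and not between lines. All 4 pluripotent types were grown on irradiated MEFs with leukaemia inhibitory factor, and RNA of those feeder cells may be part of each library.

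Recovered miRNA reads ran from 4863365 to 8608689 per library, so that 3 reads stood for 0.348 to 0.617 CPM, the read count scaled to the library's miRNA total. The 10 pluripotency miRNAs of the miR-290 and miR-302 clusters summed to 0.745 to 8.83 CPM in MEFs, where 4 of the 10 were at 0 reads in every library, and to 67851 to 130979 CPM in the 9 libraries of pluripotent cells. A list of 10 fibroblast and mesenchymal miRNAs summed to 73296 to 101546 CPM in MEFs and 44734 to 48915 CPM in ESCs. It summed to 13411 to 14949 CPM in iPSCs, 35297 to 35570 CPM in NT-ESCs and 36701 to 41978 CPM in NT-iPSCs, and no member of it was at 0 reads in every library of any group. Single members carried much of these sums. miR-143-3p gave 35935 to 40712 CPM in ESCs. miR-199a-3p gave 9942 to 10566 CPM in iPSCs, 28476 to 28870 CPM in NT-ESCs and 28692 to 33868 CPM in NT-iPSCs. By the limma test used below, 6 of the 10 were lower and 4 higher in reprogrammed types than in ESCs. Of all tested miRNAs, 38% were lower and 44% higher. The study lists the 6 libraries of reprogrammed cells in a separate block from the 6 of MEFs and ESCs in its read accounting, and names no batch of library preparation. Every reprogrammed library has more total reads there than every MEF or ESC library. Cell type and any difference in library preparation or read annotation between these sets cannot be told apart. In bulk cultures, fewer cells that carry a miRNA and fewer copies per cell cannot be told apart either.

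The sequences below are the mature arms and the hairpin on which the arm comparison turns, from RefSeq on GRCm38.p6, with the seed in capitals in the mature arms.

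miR-140-3p: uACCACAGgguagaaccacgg

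miR-455-5p: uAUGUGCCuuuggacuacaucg

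miR-455-3p: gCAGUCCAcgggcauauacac

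In the hairpin of miR-140 the capitals mark the 3p arm, at positions 45 to 65 from the 5′ end, and the 5p arm belongs to the other side of the stem.

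Mir140 hairpin: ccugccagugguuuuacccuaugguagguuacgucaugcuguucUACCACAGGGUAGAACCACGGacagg

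The seeds of miR-140-3p, miR-455-5p and miR-455-3p differ from each other, and none of the other miRNAs among the 804 names with a RefSeq sequence shares 1 of them. The Mir140 hairpin lies on the plus strand at chr8:107551244-107551313, inside Wwp2 (chr8:107436365-107558595, plus strand). It is intronic in the 3 coding transcripts of Wwp2 that span it and falls in an exon of a transcript annotated as a retained intron. miR-140-3p occupies chr8:107551288-107551308. The Mir455 hairpin is at chr4:63256851-63256932 on the plus strand, in an intron of Col27a1 (chr4:63214004-63334991, plus strand), with miR-455-5p at chr4:63256867-63256888 and miR-455-3p at chr4:63256904-63256924.

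miR-140-5p was abundant in MEFs and ESCs and low in all reprogrammed cells. The MEF libraries held 4369, 4891 and 4483 reads of it, and the ESC libraries 3801, 4727 and 3848. The iPSC libraries held 22 and 21 reads, the NT-ESC libraries 23 and 20, and the NT-iPSC libraries 30 and 41. The 6 MEF and ESC libraries were therefore high without exception and the 6 reprogrammed libraries low, with no overlap. On the deposited scale, which is a log2 scale after a variance stabilizing transformation (VST), the mean level was 14.61 ± 0.04 in MEFs and 14.21 ± 0.10 in ESCs (SD, n = 3 each). iPSCs were at 6.15 ± 0.05, NT-iPSCs at 7.00 ± 0.32 and NT-ESCs at 6.23 ± 0.09 (SD, n = 2 each). By mean CPM the arm ranked 91 in MEFs and 99 in ESCs among 1042 miRNAs, against 551 in iPSCs, 508 in NT-iPSCs and 545 in NT-ESCs.

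The partner arm, miR-140-3p, went the other way. Its reads numbered 60914, 51921 and 58922 in the MEF libraries and 56764, 62915 and 64481 in the ESC libraries. In iPSCs they numbered 244863 and 320691, in NT-ESCs 294999 and 253729, and in NT-iPSCs 221916 and 213420. The lowest reprogrammed library was thus above the highest MEF or ESC library. On the VST scale the mean was 18.25 ± 0.17 in MEFs and 18.11 ± 0.08 in ESCs (SD, n = 3 each). iPSCs were at 19.76 ± 0.27, NT-iPSCs at 19.56 ± 0.03 and NT-ESCs at 19.81 ± 0.08 (SD, n = 2 each). miR-140-3p reached 49461 ± 4536 CPM (SD, n = 2) in iPSCs, where it ranked 3 of all 1042 miRNAs. It ranked 6 in NT-ESCs and 9 in NT-iPSCs, compared with 18 in ESCs and 27 in MEFs.

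**Figure D1:**
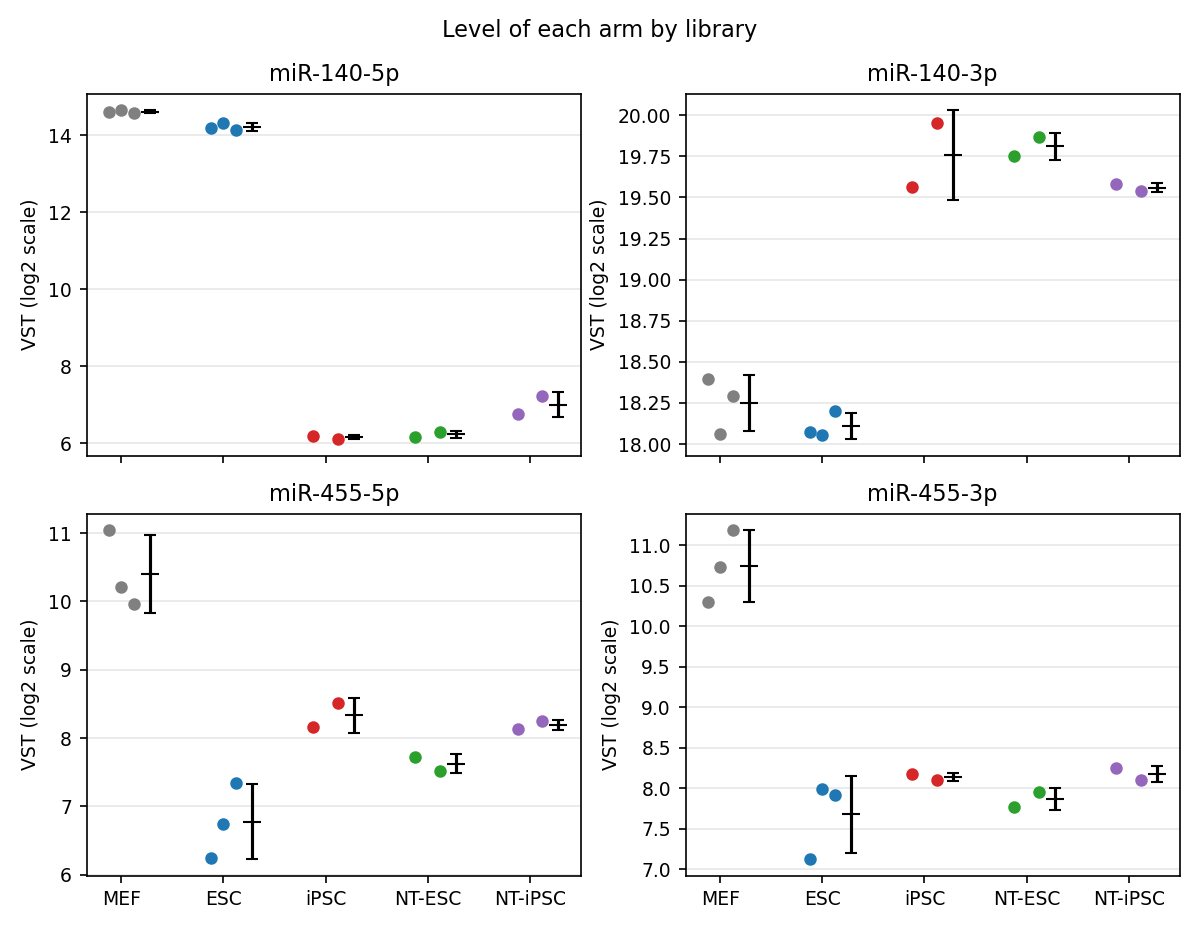
Level of miR-140-5p, miR-140-3p, miR-455-5p and miR-455-3p in each library (points) by cell type, on the deposited VST scale (log2). Bars give the mean ± SD of a cell type (n = 3 for MEF and ESC, n = 2 for the others), and each panel has its own vertical axis. miR-140-5p drops from above 14 in MEFs and ESCs to 6.12 to 7.22 in reprogrammed cells while miR-140-3p rises, and both miR-455 arms are highest in MEFs.

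The question set by the study's design was how reprogrammed cells compare with ESCs and with the MEFs they came from. Against ESCs, 3 of the 4 arms passed the test for the mean of the reprogrammed types, limma with Benjamini-Hochberg adjustment over 732 miRNAs. The background was high, since 82% of all tested miRNAs passed in this comparison. miR-140-5p differed by -7.75 on the VST scale (SE 0.13, limma adjusted p = 2.6e-12), and its normalized reads were 214-fold lower in reprogrammed cells. That difference ranked 3 in size among the 732 miRNAs, whose median absolute difference was 2.00. miR-140-3p was higher by 1.60 (SE 0.12, limma adjusted p = 2.4e-07), or 3.05-fold in normalized reads, which ranked 429. miR-455-5p was higher by 1.28 (SE 0.29, limma adjusted p = 0.0015), or 2.41-fold. For miR-455-3p the difference was 0.38 (95% interval -0.15 to 0.92, limma adjusted p = 0.166), and the reprogrammed and ESC libraries overlapped. It passed with scaling to the upper quartile (0.59, limma adjusted p = 0.036), and was 0.11 without ESC replicate 2 and 0.54 without ESC replicate 3.

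Each reprogrammed type gave the same order for miR-140 when set against ESCs alone. The difference of miR-140-5p was -8.06 for iPSCs, -7.21 for NT-iPSCs and -7.98 for NT-ESCs, with limma adjusted p of 2.7e-11, 5.8e-11 and 3.0e-11. In the same order that of miR-140-3p was 1.65, 1.45 and 1.70, with limma adjusted p of 2.3e-06, 7.2e-06 and 1.9e-06. These 3 comparisons share the ESC libraries, and 75.8%, 77.6% and 75.8% of all tested miRNAs passed in them. The fall of miR-140-5p and the rise of miR-140-3p were thus present in every reprogrammed line taken on its own.

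With MEFs as the reference, all 4 arms passed, against 88.9% of all tested miRNAs. miR-140-5p differed by -8.15 on the VST scale (SE 0.13, limma adjusted p = 3.9e-13), which was 281-fold lower in normalized reads of reprogrammed cells. Its rank by size was 33 in this comparison. The miR-140-5p difference ran from -8.57 to -7.15 over the other scalings and settings with all libraries kept. miR-140-3p was 1.46 higher (SE 0.12, limma adjusted p = 3.9e-07), or 2.76-fold. miR-455-5p differed by -2.35 (SE 0.29, limma adjusted p = 9.6e-06) and miR-455-3p by -2.68 (SE 0.24, limma adjusted p = 6.8e-07), which was 5.30-fold and 6.65-fold lower in normalized reads. So both arms of miR-455 were lower in the mean of the reprogrammed types than in MEFs, whereas those of miR-140 parted. With libraries scaled to total reads the miR-455 differences shrank to -1.35 for miR-455-5p and -1.68 for miR-455-3p, and that of miR-140-3p grew to 2.47; every one of them still passed. For iPSCs alone against MEFs, where 87.8% of all tested miRNAs passed, the same scaling took miR-455-5p from -2.07 (limma adjusted p = 0.00026) to -0.76, which did not pass (limma adjusted p = 0.058).

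**Figure D2:**
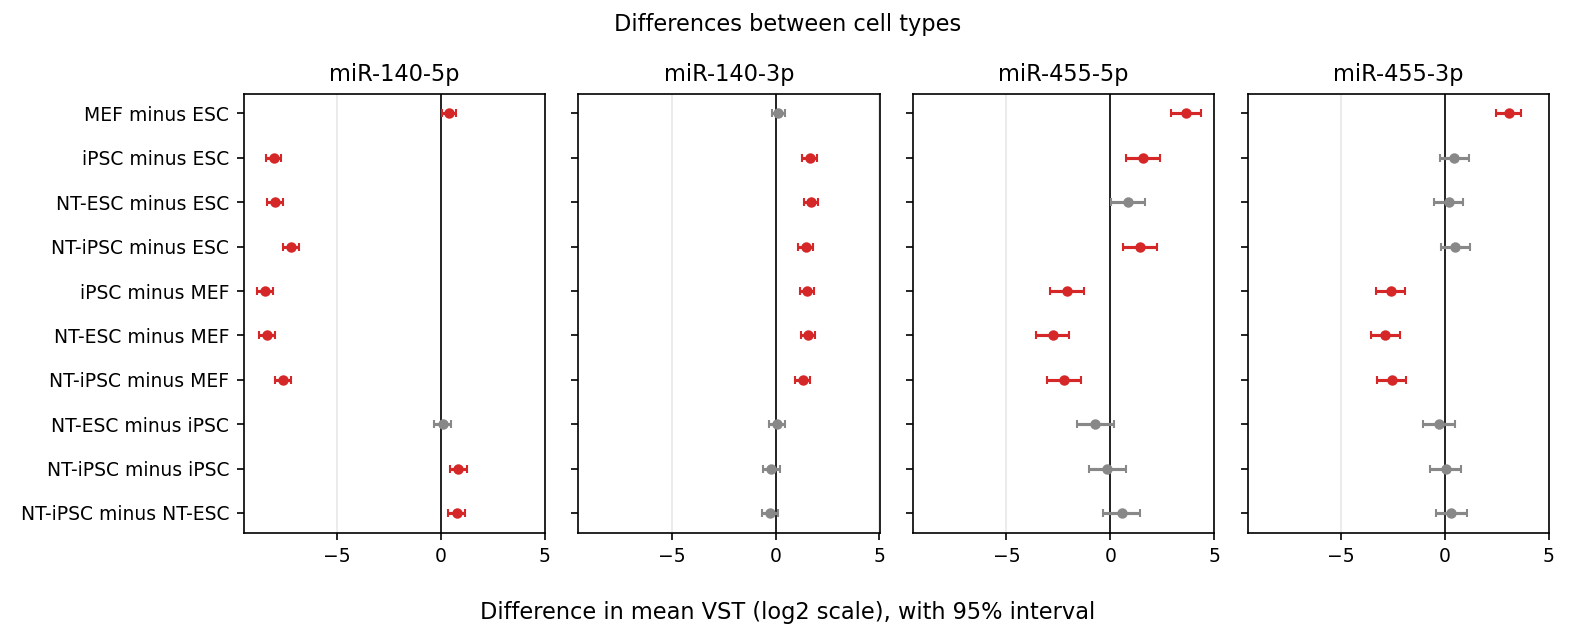
Difference in mean VST (log2 scale) between cell types for each arm, with its 95% interval from limma. Red marks an adjusted p under 0.05 over 732 miRNAs and grey the rest. miR-140-5p lies near -8 and miR-140-3p near 1.5 in all comparisons of reprogrammed cells with ESCs or MEFs, and both miR-455 arms lie above 3 for MEFs minus ESCs.

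Both arms of miR-455 were highest in MEFs, although both were read in every library. The MEF libraries held 372, 225 and 182 reads of miR-455-5p, and the ESC libraries 15, 24 and 34. In the reprogrammed libraries there were 89 and 115 in iPSCs, 70 and 48 in NT-ESCs, and 79 and 84 in NT-iPSCs. MEFs were above every other library and ESCs below every other library. By CPM the lowest MEF library, replicate 15 at 22.6, was close to the highest iPSC library, replicate 63 at 18.9. The VST level was 10.41 ± 0.57 in MEFs and 6.77 ± 0.55 in ESCs (SD, n = 3 each), and 8.34 ± 0.26 in iPSCs, 8.19 ± 0.07 in NT-iPSCs and 7.63 ± 0.14 in NT-ESCs (SD, n = 2 each). Against ESCs, miR-455-5p was higher in iPSCs by 1.56 (SE 0.37, limma adjusted p = 0.0024) and in NT-iPSCs by 1.42 (SE 0.37, limma adjusted p = 0.0045). For NT-ESCs the difference of 0.85 did not pass (95% interval 0.04 to 1.67, limma adjusted p = 0.054), although it did with scaling to the upper quartile (1.08) or to total reads (0.91), and narrowly with a pseudocount of 1 (0.84, limma adjusted p = 0.046) or the 100-read minimum (0.85, limma adjusted p = 0.046). It passed too without MEF replicate 13 or 15 (limma adjusted p = 0.028 and 0.048) and, at 1.14, without ESC replicate 4 (limma adjusted p = 0.017).

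miR-455-3p had 221, 323 and 428 reads in the MEF libraries and 28, 58 and 51 in the ESC libraries. It had 90 and 86 in iPSCs, 72 and 65 in NT-ESCs, and 85 and 76 in NT-iPSCs. Here too MEFs stood above all other libraries, but the ESC and NT-ESC ranges overlapped once reads were normalized. Its VST level was 10.74 ± 0.45 in MEFs and 7.67 ± 0.48 in ESCs (SD, n = 3 each), with 8.14 ± 0.05 in iPSCs, 8.17 ± 0.10 in NT-iPSCs and 7.86 ± 0.13 in NT-ESCs (SD, n = 2 each). Outside MEFs these values rest on 28 to 90 reads per library. Both arms stayed far below the level of miR-140-3p, since miR-455 ranked 236 or lower by mean CPM in every cell type.

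Between MEFs and ESCs, the pair of types that were not reprogrammed, miR-455-5p was higher in MEFs by 3.63 (SE 0.33, limma adjusted p = 1.3e-06), a 12.8-fold difference in normalized reads. The same comparison gave 3.06 (SE 0.28, limma adjusted p = 1.4e-06), or 8.45-fold, for miR-455-3p. miR-140-5p was 0.40 higher in MEFs (SE 0.15, limma adjusted p = 0.033), while miR-140-3p differed by 0.14 (95% interval -0.18 to 0.46, limma adjusted p = 0.387). Thus 3 of 4 arms passed where 79% of all tested miRNAs did, but the miR-140-5p call was lost without MEF replicate 13, 14 or 15 or ESC replicate 2 or 4, at 0.36 to 0.41. For miR-140 the direction is not settled between MEFs and ESCs. With scaling by TMM the miR-140-5p difference became -0.11 and the miR-140-3p difference -0.37, neither of which passed. With total reads they became -0.49 and -0.75, and with the upper quartile 1.04 and 0.78, all of which passed (limma adjusted p = 0.020, 9.4e-05, 7.8e-05 and 0.00021), whereas the miR-455 differences stayed at 2.18 or more under all scalings. All 10 fibroblast and mesenchymal miRNAs were also higher in MEFs than in ESCs, with a median difference of 3.24. How far feeder RNA contributes to the miR-455 level of the pluripotent cultures was not tested.

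The reprogrammed types were also compared with each other. For miR-140-5p, NT-iPSCs exceeded iPSCs by 0.85 (SE 0.19, limma adjusted p = 0.0068), with 30 and 41 reads against 22 and 21, in a comparison where 26.5% of all tested miRNAs passed. They exceeded NT-ESCs by 0.77 (SE 0.19, limma adjusted p = 0.034), where 12.8% passed. NT-ESCs and iPSCs differed by 0.08 (95% interval -0.33 to 0.49, limma adjusted p = 0.79), where 25.7% passed. miR-140-3p and both arms of miR-455 passed in none of the 3 comparisons with the deposited scaling, and the intervals of miR-455-5p, which were wider than those of the other two arms, ran from -1.60 to 0.18 for NT-ESCs minus iPSCs, from -1.04 to 0.74 for NT-iPSCs minus iPSCs and from -0.33 to 1.45 for NT-iPSCs minus NT-ESCs. All 10 fibroblast and mesenchymal miRNAs were higher in NT-iPSCs than in iPSCs, as were 9 of the 10 in NT-ESCs than in iPSCs, where miR-140-5p did not pass, and 1 of the 10 in NT-iPSCs than in NT-ESCs. Their part in the miR-140-5p differences was not tested. With scaling to total reads, miR-140-3p in NT-iPSCs minus iPSCs moved from -0.20 to -0.74 and passed (limma adjusted p = 0.0018). Both miR-140-5p calls were lost with that scaling, where the differences were 0.32 and 0.59, and without NT-iPSC replicate 52, where they were 0.62 and 0.54. They were lost too by voom and with only the groups compared, at 0.86 and 0.85 for iPSCs and 0.78 and 0.77 for NT-ESCs, and the NT-ESC call also with TMM scaling (0.70) or without NT-ESC replicate 71 (0.70) or 72 (0.83).

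In order of level, on the deposited VST scale, miR-140-5p ran MEF, ESC, NT-iPSC, NT-ESC, iPSC, and the neighbours NT-ESC and iPSC did not differ beyond their spread. By mean CPM, ESCs (789) came before MEFs (562) and the step from NT-iPSC to NT-ESC lost its call in the settings named above. miR-140-3p ran NT-ESC, iPSC, NT-iPSC, MEF, ESC on the VST scale, where the break beyond the spread lay between NT-iPSC and MEF. By mean CPM it ran iPSC (49461), NT-ESC (39833), NT-iPSC (29490), ESC (11802), MEF (6997). For miR-455-5p the VST order was MEF, iPSC, NT-iPSC, NT-ESC, ESC and for miR-455-3p it was MEF, NT-iPSC, iPSC, NT-ESC, ESC, although by mean CPM iPSCs (15.6) came before NT-iPSCs (10.9) in miR-455-3p. In both, the neighbours below MEF did not pass the test against each other.

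The balance of the arms puts these changes in a form that does not depend on library scaling, because both arms are read in the same library. In every library of MEFs and ESCs, miR-140 was a 3p-dominant hairpin with a sizeable 5p share. The 5p arm made up 7.46% ± 1.02 of the reads of both arms in MEFs and 6.30% ± 0.679 in ESCs (SD, n = 3 each). In reprogrammed cells the share was 0.00777% ± 0.00172 for iPSCs, 0.0164% ± 0.00402 for NT-iPSCs and 0.00784% ± 6.1e-05 for NT-ESCs (SD, n = 2 each). Put as a ratio, MEF and ESC libraries held 10.6 to 16.8 reads of 3p for each read of 5p, and reprogrammed libraries 5205 to 15271. The counting error is small beside this gap, since the 95% Wilson interval of the highest reprogrammed library, NT-iPSC replicate 52, was 0.0142% to 0.0261% and that of the lowest ESC library, replicate 4, was 5.46% to 5.81%. Such intervals speak to counting alone, since reads made by amplification are not separate molecules.

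The 5p share of miR-140 was lower by 6.29 percentage points in the 6 reprogrammed libraries than in the 3 ESC libraries, a difference of -6.29 (two-sided exact permutation p = 0.0238, the smallest that 84 arrangements allow, and 0.0476 adjusted over 6 comparisons). Against the 3 MEF libraries the difference was -7.45 points, with the same exact permutation p. The permutation treats libraries as exchangeable, although they are RNA batches of a few lines, so it does not measure the spread between lines. Across the 263 hairpin names with both arms past the filter, the difference VST(5p) minus VST(3p) of miR-140 shifted by -9.35 against ESCs (SE 0.23, limma adjusted p = 6.5e-10), ranking 2 in size. Against MEFs it shifted by -9.61 (SE 0.23, limma adjusted p = 6.6e-10), ranking 3. Shifts were common in these comparisons, as 79.5% of the 263 hairpins passed against ESCs and 77.6% against MEFs, with a median absolute shift of 2.69 and 2.37. Between MEFs and ESCs the balance of miR-140 differed by 0.26 (95% interval -0.32 to 0.84, limma adjusted p = 0.524), where 23.6% of hairpins passed.

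**Figure D3:**
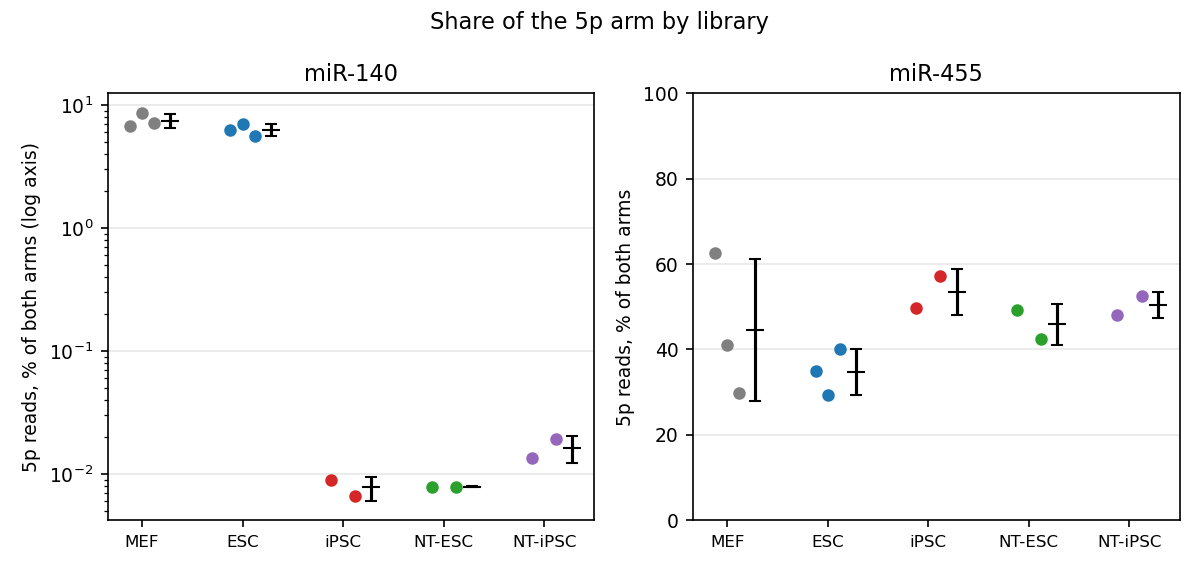
Share of the 5p arm in the reads of both arms of miR-140 (left, log axis) and miR-455 (right, linear axis), in percent, for each library by cell type. Bars give the mean ± SD (n = 3 for MEF and ESC, n = 2 for the others). For miR-140 the MEF and ESC libraries lie between 5.63% and 8.61% and the reprogrammed libraries between 0.00655% and 0.0192%, while for miR-455 all libraries lie between 29.3% and 62.7%.

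The total of both arms of miR-140 rose while its 5p arm fell. It was 7559 ± 326 CPM in MEFs and 12591 ± 947 CPM in ESCs (SD, n = 3 each). It reached 49465 ± 4535 CPM in iPSCs, 29494 ± 142 CPM in NT-iPSCs and 39836 ± 1201 CPM in NT-ESCs (SD, n = 2 each). The lowest reprogrammed library, at 29394 CPM, was above the highest ESC library, at 13598 CPM. Opposite calls on the arms of a hairpin, as for miR-140, were made for 79 of the 263 hairpin names (30.0%) in the reprogrammed types against ESCs and for 50 (19.0%) against MEFs. In MEFs against ESCs there were 6 (2.28%), and miR-140 was not among them. Between reprogrammed types the balance of miR-140 differed by 1.04 for NT-iPSCs minus iPSCs (95% interval 0.33 to 1.76, limma adjusted p = 0.265) and by 1.02 for NT-iPSCs minus NT-ESCs (95% interval 0.30 to 1.73, limma adjusted p = 0.407), intervals that leave out 0 although the adjusted test was not passed. For NT-ESCs minus iPSCs it was 0.03 (95% interval -0.69 to 0.74, limma adjusted p = 0.97). In these comparisons limma called 0 of 263 hairpins (0%) for NT-ESCs and 0 (0%) for NT-iPSCs against iPSCs, and 1 (0.38%) for NT-iPSCs against NT-ESCs, where 26, 29 and 13 had an unadjusted p under 0.05. The divergence of the miR-140 arms was thus 1 of many in the comparisons across the sets of libraries, and whether library preparation or read annotation had a part in it was not tested.

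**Figure D4:**
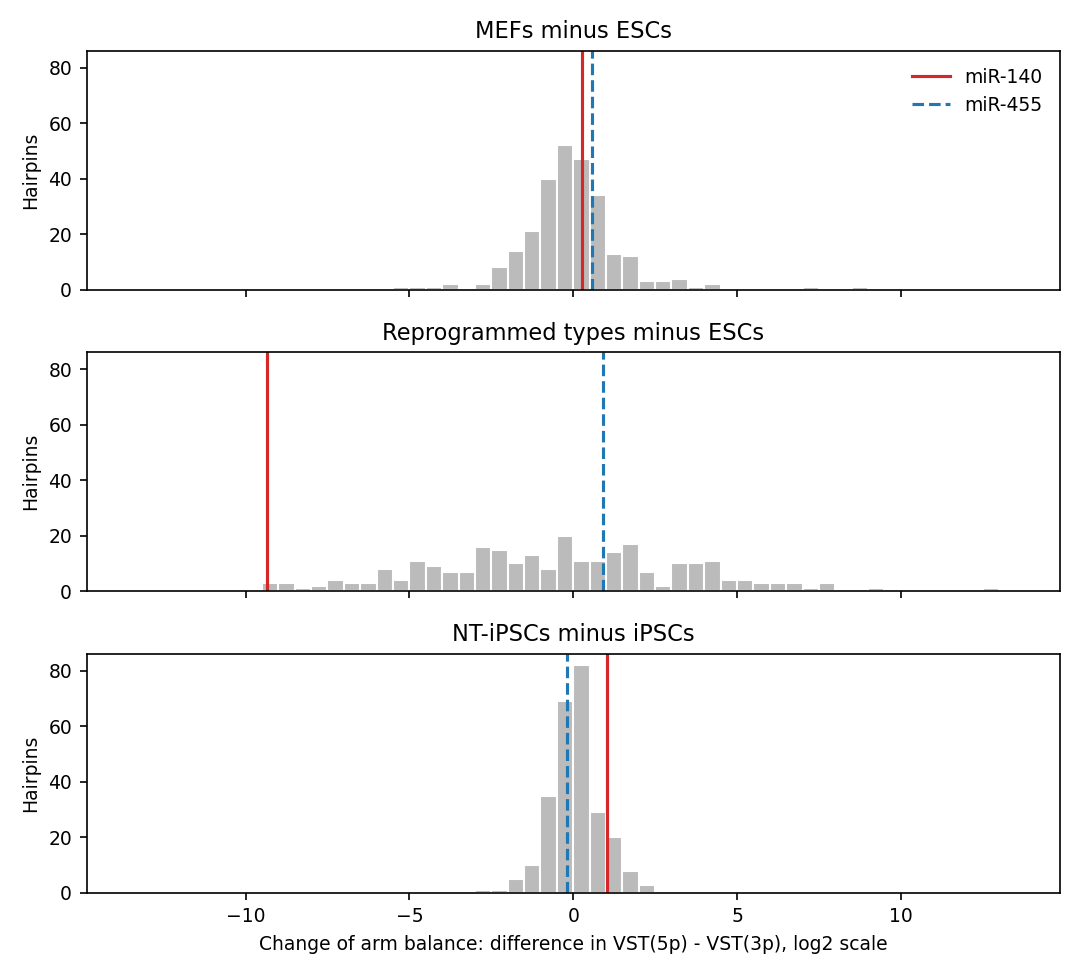
Histograms of the difference in VST(5p) minus VST(3p) (log2 scale) over 263 hairpin names, for MEFs minus ESCs, the mean of the reprogrammed types minus ESCs, and NT-iPSCs minus iPSCs. The solid line marks miR-140 (0.26, -9.35 and 1.04) and the dashed line miR-455 (0.57, 0.89 and -0.18). In the middle panel miR-140 is at the lower edge of a wide distribution and miR-455 is near its centre.

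Neither arm of miR-455 took less than 29.3% of the reads of the hairpin in any library. The 5p share was 44.5% ± 16.7 in MEFs and 34.7% ± 5.37 in ESCs (SD, n = 3 each). iPSCs had 53.5% ± 5.30, NT-iPSCs 50.3% ± 3.06 and NT-ESCs 45.9% ± 4.82 (SD, n = 2 each). The MEF replicates spread most, at 62.7% in replicate 13 (95% Wilson interval 58.8% to 66.5%), 41.1% in replicate 14 (37.0% to 45.2%) and 29.8% in replicate 15 (26.3% to 33.6%). These intervals do not overlap, so the MEF replicates differed by more than the counting of separate reads gives. Spread added by amplification is not part of such intervals. The ESC intervals, from 20.5% to 50.6% in all, did overlap.

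All 6 reprogrammed libraries had a higher 5p share of miR-455 than the 3 ESC libraries, by 15.2 percentage points on average (two-sided exact permutation p = 0.0238, the smallest that 84 arrangements allow, and 0.0476 adjusted over 6 comparisons). The ESC shares rest on 43 to 85 reads of both arms per library. In the fit over 263 hairpins the shift was 0.89 (95% interval 0.02 to 1.77) and did not pass (limma adjusted p = 0.057). It ranked 219 in size, where 79.5% of hairpins passed and the median absolute shift was 2.69. The miR-455 shift passed without MEF replicate 13 (limma adjusted p = 0.0085) or replicate 15 (limma adjusted p = 0.025), with its value unchanged at 0.89. Against MEFs the shift was 0.33 (95% interval -0.54 to 1.20, limma adjusted p = 0.455), and it was -0.12 without MEF replicate 15 and 0.87 without replicate 13 (limma adjusted p = 0.020). The arm balance of miR-455 between reprogrammed cells and MEFs therefore rests on single MEF libraries. MEFs and ESCs differed by 0.57 (95% interval -0.44 to 1.57, limma adjusted p = 0.418).

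The miRNAs whose levels over the 12 libraries were most like each arm were found among the other tested miRNAs by Pearson's r of VST values. These libraries fall into a few cell types, so the values are a description of shared steps between cell types. For miR-140-5p they were miR-24-2-5p (r = 0.997), miR-30d-5p (r = 0.997) and miR-148a-3p (r = 0.995). The mean VST of miR-24-2-5p was 14.10 in MEFs and 13.86 in ESCs against 7.35 to 8.28 in reprogrammed types. The step of miR-30d-5p was smaller, from 18.33 in MEFs and 17.98 in ESCs to 15.39 to 15.73 in reprogrammed types, since r does not measure size. An r of at least 0.9 with miR-140-5p was shared by 115 of 731 other miRNAs, and 107 had an r of -0.9 or lower. A step between these library sets, whatever its size, was thus common. Among these opposite profiles was that of its own partner, miR-140-3p (r = -0.984).

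Nearest to miR-140-3p were miR-107-3p (r = 0.990), miR-674-5p (r = 0.984) and miR-139-5p (r = 0.983). miR-107-3p, a relative of miR-103, rose from a mean VST of 10.90 in ESCs to between 16.70 and 17.08 in the reprogrammed types, a wider step than that of miR-140-3p. For miR-455-5p the nearest were miR-133b-3p (r = 0.963), miR-133a-5p (r = 0.960) and miR-3099-3p (r = 0.945), and for miR-455-3p miR-486-5p (r = 0.981), miR-3107-5p (r = 0.980) and miR-133b-5p (r = 0.966). The miR-133 family is known from muscle, and miR-133b-5p was above the value of 0 reads, 0.59, in MEFs only. miR-486-5p and miR-3107-5p come from near-identical copies whose reads may be shared between the names, so their like values are uncertain as separate observations. The miR-455 arms followed each other with r = 0.901.

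Other miRNAs linked to cartilage were taken as a list of 20, all of which were tested and 4 of which are also on the fibroblast and mesenchymal list. In MEFs against ESCs 13 were higher and 4 lower, where 39.1% of all miRNAs tested were higher and 39.9% lower, and the median difference was 1.31 against 0 over all miRNAs. The list holds miR-145-5p, known to act on Sox9, which was 3.32 higher in MEFs (SE 0.40, limma adjusted p = 1.6e-05). The hypoxia-linked miR-210-3p was lower in MEFs, with a difference of -3.95 (SE 0.22, limma adjusted p = 2.3e-08). Under scaling to total reads 10 were higher and 6 lower, with a median of 0.42, where 162 of all 732 miRNAs were higher and 386 lower, with a median of -0.80.

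In reprogrammed types against ESCs, 12 of the 20 were higher and 6 lower, beside 44% and 38% of all tested, with a median difference of 0.97 against 0.24. miR-365-3p was 6.25 higher (SE 0.31, limma adjusted p = 4.0e-09), with 281 to 1293 reads against 4 to 12 in ESCs, and miR-29a-3p, a regulator of collagen mRNAs, 4.89 higher (SE 0.13, limma adjusted p = 6.4e-11). miR-148a-3p differed by -4.57 (SE 0.12, limma adjusted p = 5.2e-11). As in miR-140, the arms of the listed hairpin miR-199a parted in this comparison. miR-199a-3p rose by 3.66 where miR-199a-5p differed by -2.11, with limma adjusted p of 1.9e-09 and 4.4e-06. miR-199a-3p has the same sequence as miR-199b-3p, so how its reads were split between the names is uncertain. Against MEFs, 9 of the 20 were higher and 10 lower in reprogrammed types, beside 48.5% and 40.4% of all tested. The median there was -0.25 but became 0.09 with TMM scaling and 0.75 with total reads, beside medians over all miRNAs of 0.40, 0.73 and 1.38, so the sign of the list's median depended on the scaling in that comparison.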

How the data were processed

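Small RNA libraries of the 5 cell types were grouped by their labels. Per the study's methods, the authors cleaned and annotated the reads and applied the normalization and the VST of DESeq. The authors deposited those values, on a log2 scale, for 1042 miRNAs in 12 libraries. The submitters' processing notes, as deposited by the authors, name DESeq and the build mm8; versions and the miRNA annotation are not given in the sources used here. Positions printed here are from GENCODE and RefSeq on GRCm38 and were not mixed with that build.

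The authors compared pairs of groups with the count test of DESeq, and the 3 reprogrammed types with a test over all 3. Because transformed values were deposited, limma (3.58.1, R 4.3.3) with empirical Bayes moderation and a trend was used in its place, with a mean for each of 5 groups over all 12 libraries and Benjamini-Hochberg adjustment at 0.05 over the 732 miRNAs that reached 10 reads in 2 or more libraries. Arm balance was tested the same way on VST(5p) minus VST(3p) over 263 hairpin names. Contrasts with reprogrammed cells used the mean of the 3 types. The VST was inverted to reads, which were whole within 0.05 read for 100% of nonzero values (largest deviation 0.0162). VST values recomputed from them lay within 0.0034 of the deposited ones, and size factors within 0.992 to 1.006 times the median of ratios. Normalized reads are reads divided by these size factors. Folds are ratios of mean normalized reads, and at low reads a VST difference falls short of a log2 fold. For the reads of the 9 replicate pairs, chi-square divided by its degrees of freedom was 46.4 to 350, where counting alone gives about 1, so no library was a copy of another. Shares of the 5p arm were compared by two-sided exact permutation of libraries, which cannot give less than 0.1 for 3 against 3.

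The members and lists were chosen with earlier results of these data known. Named miRNAs were the 4 arms, the 3 others with the highest r to each, and examples from the cartilage list, the last picked out after their values were seen. Alternatives were upper quartile, TMM-type and total reads scaling, log2 with a pseudocount of 1, voom, no filter, 100 reads in every library of a group, a log2 ratio of reads for the arms, fits of only the groups compared, and each library left out. The procedure was tested on simulated data. Summaries used scipy 1.17.1, pandas 2.3.3 and numpy 2.4.6 in Python 3.11.15, and figures matplotlib 3.10.9. Genome-wide target predictions were not analysed here.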

Additional observations from a re-analysis of the deposited data

Results flagged for a closer look

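In 2 comparisons an arm differed between reprogrammed types under a direct test of the difference. The level of miR-140-5p was 0.85 higher in NT-iPSCs than in iPSCs and 0.77 higher than in NT-ESCs on the VST scale (limma adjusted p = 0.0068 and 0.034), with 30 and 41 reads in the 2 NT-iPSC libraries and 20 to 23 in the other 4. Over the alternatives with all libraries kept, the adjusted p of the first ran from 0.0045 to 0.244 and the difference from 0.32 to 0.92, and those of the second from 0.022 to 0.153 and from 0.59 to 0.78.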

How the results depend on the processing

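For the reprogrammed types against ESCs or MEFs and for MEFs against ESCs, the differences of miR-140-5p and miR-140-3p in the first 2 comparisons, of miR-455-5p in all 3, and of miR-455-3p in both comparisons with MEFs kept their direction and their side of the threshold under all alternatives, as did the arm balance of miR-140. MEFs against ESCs depended on scaling. The shift relative to the deposited scaling was -0.51 with TMM-type, -0.89 with total reads and 0.64 with upper quartile scaling, and for reprogrammed types against ESCs -0.16, 0.12 and 0.22. The split of calls over all miRNAs moved with it, from 49.5% higher in MEFs to 37.8%, 29.6% and 60.4%, and for reprogrammed types against MEFs from 54.5% higher to 65.6% with total reads. In MEFs against ESCs the miR-140-5p difference was -0.11 with TMM-type and -0.49 with total reads scaling, and the miR-140-3p difference -0.37 and -0.75, against 1.04 and 0.78 with upper quartile scaling. Upper quartile scaling also took miR-455-3p in reprogrammed types against ESCs past the threshold, at 0.59. With total reads scaling, NT-ESCs minus iPSCs turned to -0.27 for miR-140-5p and -0.31 for miR-140-3p, and NT-iPSCs minus iPSCs to -0.50 for miR-455-3p, and in the last comparison miR-140-3p passed at -0.74. The causes were not tested.

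With each library left out (a library left alone in its group is assumed to vary like the other groups), miR-140-5p in MEFs against ESCs ran from 0.36 to 0.45 (limma adjusted p 0.016 to 0.093), passing the threshold no longer without MEF replicate 13, 14 or 15 or ESC replicate 2 or 4. miR-455-3p in reprogrammed types against ESCs ran from 0.11 to 0.54 and passed in none of these. The arm balance of miR-455 in reprogrammed types ran from 0.72 to 1.06 against ESCs, and from -0.12 to 0.87 against MEFs. Against ESCs it was 0.88 (limma adjusted p = 0.046) as a log2 ratio of reads, and 0.89 with the 100-read minimum or only the groups compared (limma adjusted p = 0.046 and 0.0058). Directions also turned, in results that did not pass with all libraries, for miR-455-3p in NT-ESCs minus ESCs (-0.088 to 0.34), miR-140-3p in NT-ESCs minus iPSCs (-0.14 to 0.24), and miR-455-5p (-0.33 to 0.036) and miR-455-3p (-0.036 to 0.11) in NT-iPSCs minus iPSCs. The same held for the arm balance of miR-455 in NT-ESCs minus MEFs (-0.35 to 0.64), NT-iPSCs minus MEFs (-0.10 to 0.90) and NT-iPSCs minus iPSCs (-0.40 to 0.035), and of miR-140 in NT-ESCs minus iPSCs (-0.20 to 0.25). No paired analysis was possible because the groups have no replicate number in common. The lowest read numbers behind these values were 15 to 58 for miR-455 in ESCs and 20 to 41 for miR-140-5p in reprogrammed cells.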
